A study of Mus musculus with 9 samples.

Results

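The clustered protocadherin genes were examined as a stretch of CTCF-bound chromatin in mouse CD8+ T cells. All CTCF peaks in chr18:36900000-38100000 (mm9), the 1200 kb that hold the Pcdha, Pcdhb and Pcdhg clusters, were taken from 8 peak lists and merged where they overlapped by at least 1 bp. This gave 30 regions, numbered R01 to R30 along the chromosome, of 39574 regions in the whole series. The rule used position alone and no measured value, but the interval was chosen with earlier results of these data known. R01 straddled the start of the interval, and its peaks were counted with it also in the 2 libraries where they ended before the border.

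CTCF occupancy had been mapped by CUT&RUN, an assay that cuts free the DNA around an antibody-bound protein with a tethered nuclease. All mice carried hCD2-Cre, which drives recombination in lymphoid cells, and Rosa26-lsl-GFP, so GFP marks the cells in which Cre acted. They were either wild type (WT) or double floxed for Tcf1 and Lef1, labelled Tcf1-/-Lef1-/- (DKO). Their age is not in the labels used here. GFP+ TCRbeta+ naive CD8+ T cells (CD62Lhi, CD44lo-med) were sorted from the spleen and profiled directly (0 h, called naive below) or once cultured for 72 h in vitro in IL-7 plus IL-15, cytokines that maintain CD8+ T cells (called cultured below). Each of the 4 groups had 2 libraries, and naive WT cells also gave 1 IgG library as control. The labels do not say that replicates came from separate animals, so the spread between them may be technical.

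The clustered protocadherins are cell-surface proteins of the cadherin family and are known chiefly from the nervous system. In the Pcdha and Pcdhg clusters, each of many variable first exons has its own promoter and is spliced to a shared set of constant exons, whereas each Pcdhb gene is a single-exon gene. Single neurons express only a few of these promoters, which gives each cell a surface identity. CTCF is known to bind at many of these promoters and at distant enhancers and to join them in chromatin loops. The RefSeq gene table for mouse (GRCm38.p6) lists 14 Pcdha genes (Pcdha1 to Pcdhac2), then 22 Pcdhb genes (Pcdhb1 to Pcdhb22), then Slc25a2 and Taf7, then 21 coding Pcdhg genes and 1 transcribed pseudogene (Pcdhga1 to Pcdhgc5), followed by Diaph1 and Hdac3. That table gives names and order only, because its build differs from that of the peaks. The regions below are therefore given by position and were not assigned to single genes.

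The peak lists differed in length, from 30309 to 32587 peaks in the naive libraries, 17335 and 26630 in cultured WT, and 10339 and 16234 in cultured DKO. The median fold over each whole list ran from 9.78 to 10.4 in naive and from 7.03 to 9.06 in cultured libraries. Peaks under a fold of 4 appear in none of the CTCF lists, so a region without a peak is one with no listed peak, not one shown to lack CTCF. The IgG list had 5 peaks, 0 of them in the interval.

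CTCF regions lay at the ends of the interval and left most of it empty. The proximal 400 kb held 4 regions, the middle 400 kb held 0, and the distal 400 kb held 26. None of the 8 CTCF libraries had a listed peak between R04 (chr18:36961240-36963103) and R05 (chr18:37803564-37804249), a stretch of 840.5 kb or 70.0% of the interval. Stretches this long between neighbouring regions also occurred elsewhere. Of 38567 distances between neighbouring autosomal regions, 441 (1.14%) were at least as wide, and on chromosome 18 it was 17 of 1046.

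The deposited peaks carry running numbers along each chromosome, and a number absent from a list was read as a peak that had been called and left out. In 6 libraries the peaks on both sides of the empty stretch had consecutive numbers: all 4 naive libraries, cultured WT replicate 1 and cultured DKO replicate 2. In cultured WT replicate 2, 2 numbers were absent between R04 and its next listed peak 890.5 kb away, and in cultured DKO replicate 1, 1 number was absent over 938.4 kb. The positions of those absent peaks are not known. The distance also takes in regions with no listed peak there, R05 and R06 in cultured WT replicate 2 and R05 to R12 in cultured DKO replicate 1.

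**Figure D1:**
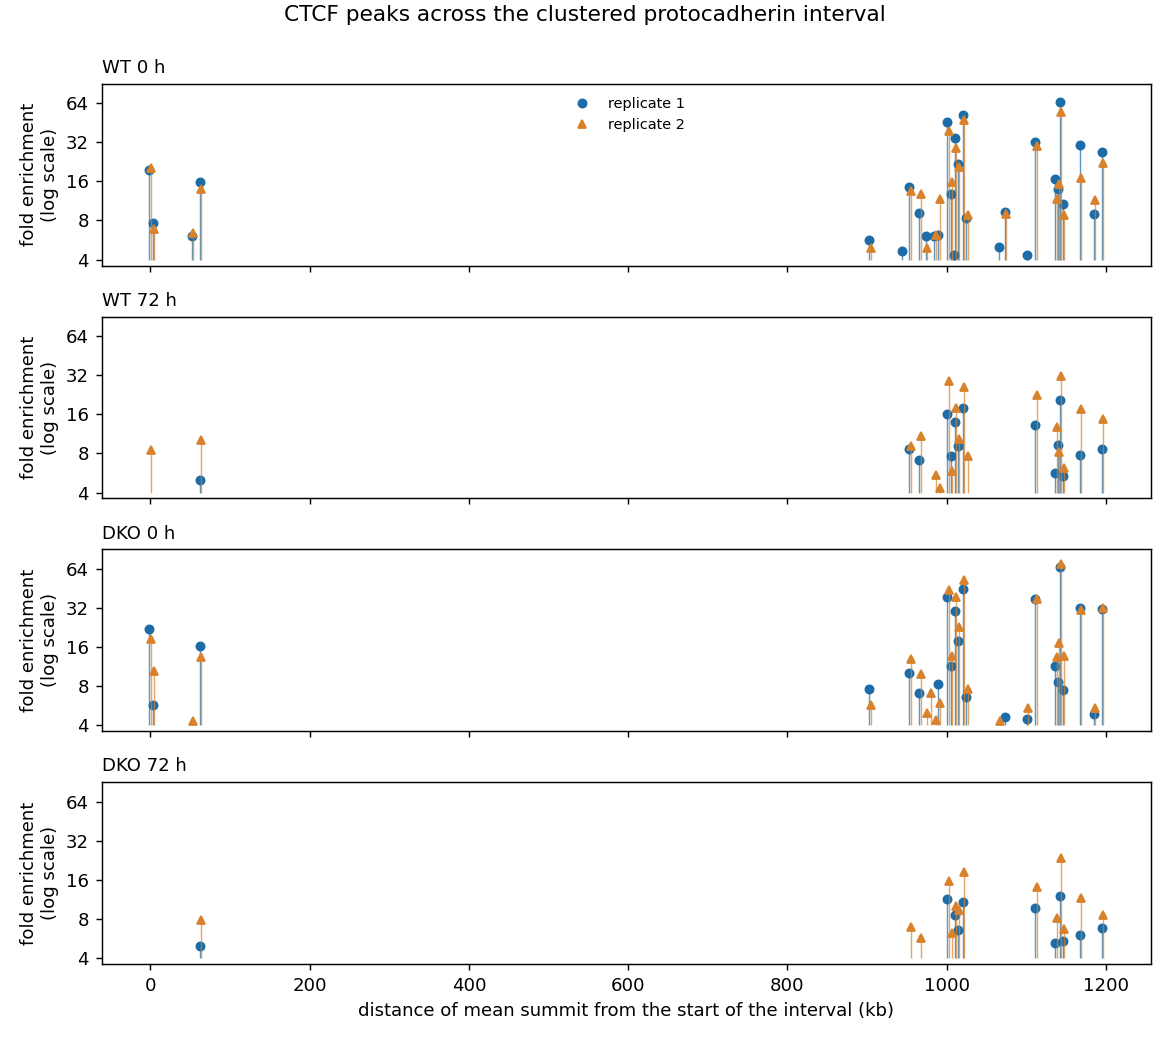
Authors' fold enrichment of each CTCF peak (vertical axis, log scale) against the distance of the region's mean summit from the start of the interval (kb), 1 panel per group, with circles for replicate 1 and triangles for replicate 2. All 4 groups show 840.5 kb without a peak, and the highest peak in every library stands in the distal part.

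Most neighbouring regions of the interval were closely spaced. The median distance between neighbouring mean summits was 7.71 kb over the 29 distances of the interval, against 15.8 kb over all autosomal neighbours. Of the 29 distances, 18 (62.1%) were under 10 kb, against 38.3% of autosomal distances. When neighbours under 15 kb apart were joined into runs, a limit chosen after the values were seen, the longest run reached from R06 to R19 and held 14 regions in 81.0 kb (chr18:37844604-37925651). Neighbours in this run stood 1.27 to 12.7 kb apart, with a median of 5.33 kb.

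The run from R24 to R27 held 4 regions in 11.1 kb (chr18:38036198-38047307), 2.92 to 3.56 kb apart. R10, R11 and R12 each had 13 other regions within 50 kb. The median was 8 such neighbours for the interval's regions and 4 for autosomal regions, and 3.44% of autosomal regions had at least 13.

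The closest pair was R15 (chr18:37909648-37910050) and R16 (chr18:37910326-37911700), with summits 1.27 kb apart. R15 was a peak of fold 4.36 in naive WT replicate 1 alone, whereas R16 had a peak in all 8 libraries. The next closest pairs were R24 with R25 (2.92 kb) and R25 with R26 (3.05 kb). Next to the empty stretch in width were the distances of 49.1 kb between R02 and R03 and 40.9 kb between R05 and R06 (chr18:37844604-37844863), and R06 had a single peak, of fold 4.69 in naive WT replicate 1.

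**Figure D2:**
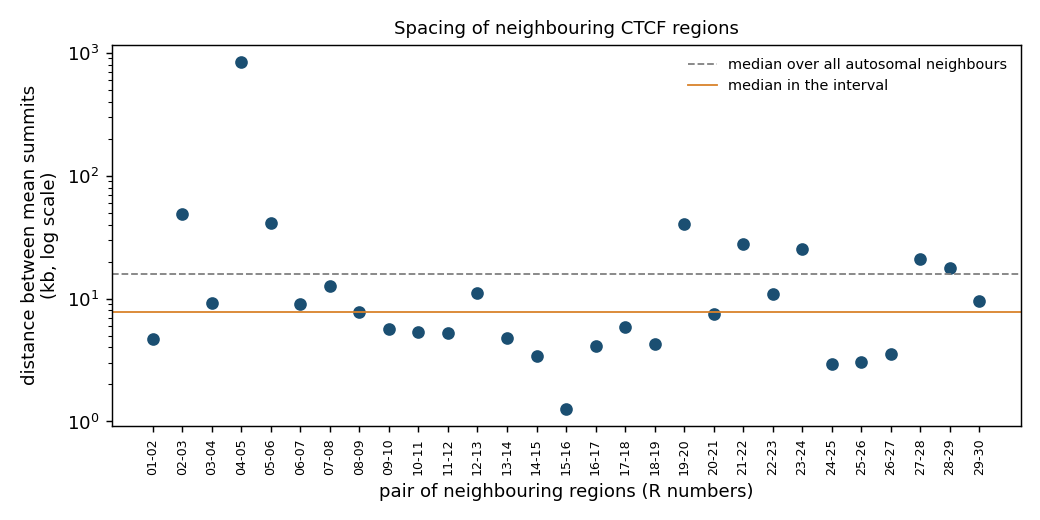
Distance between the mean summits of neighbouring regions (kb, log scale) for the 29 neighbouring pairs in chromosomal order; the lines mark the median of the interval (7.71 kb) and of all autosomal neighbours (15.8 kb). The pair R04 and R05 stands at 841.2 kb, and the pairs from R08 to R19 lie mostly under 10 kb.

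A core of the regions had a CTCF peak in every library. Of the 30 regions, 11 (36.7%, exact Clopper-Pearson 95% interval 19.9 to 56.1, which covers counting error only) were found in all 8 libraries, against 24.2% of all regions in the series. These 11 were R04, R13, R16, R17, R18, R23, R24, R26, R27, R28 and R30. One of them, R04, lay before the empty stretch, 4 lay in the run from R06 to R19 and 3 in the run from R24 to R27. Of the other 19 regions, 7 were found in 5 to 7 libraries and 12 in 1 to 4, 3 of these in a single library.

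R26 (chr18:38042685-38044310), 1626 bp wide, had the highest fold of the interval in all 8 lists. The authors' fold enrichment of the peak over its local background was 65.0 and 54.2 in naive WT, 65.4 and 69.1 in naive DKO, 20.7 and 31.2 in cultured WT, and 11.9 and 23.4 in cultured DKO. The cultured values of each genotype were below its naive values, but fold values come from lists made separately and are set side by side only. By the authors' p-value this peak ranked between place 28 and place 369 of its list, at percentiles from 96.4 to 99.9. Its summit stood at the same base, position 38043282, in all 8 libraries. A single summit position shared by all 8 libraries was found at 14 of the 9591 regions of the series with a peak in every library.

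R18 (chr18:37920506-37921718) and R13 (chr18:37900663-37902162) came next after R26 by fold in every list, R18 ahead in 6 lists and R13 ahead in cultured WT replicate 2 and cultured DKO replicate 1. By the authors' p-value R26 was again first in all 8 lists, but R30 ranked ahead of R18 in both naive DKO lists (places 550 and 1125, and 548 and 712). R30 was also ahead of R13 in those lists and in naive WT replicate 1 (places 887 and 956). R28 was ahead of R13 in naive DKO replicate 1 (places 1331 and 2023). The fold at R18 was 51.7 and 47.3 in naive WT, 44.9 and 52.3 in naive DKO, 17.9 and 26.0 in cultured WT, and 10.8 and 18.5 in cultured DKO. At R13 it was 45.3 and 38.8, 38.5 and 44.2, 16.1 and 29.0, and 11.4 and 15.7 in the same order of groups. Both belong to the run of 14 regions, on either side of R16 and R17.

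R16, between them, had folds of 34.1 and 28.7 in naive WT, 30.3 and 38.8 in naive DKO, 13.9 and 17.9 in cultured WT, and 8.57 and 10.2 in cultured DKO. R23 (chr18:38011560-38012528) had 32.1 and 29.7, 37.2 and 37.2, 13.1 and 22.4, and 9.71 and 14.1. Further toward the distal border, R30 (chr18:38094654-38096106) had 26.8 and 22.0, 31.5 and 32.1, 8.60 and 14.8, and 6.78 and 8.59. At R16, R23 and R30 the values of the naive and the cultured libraries did not overlap. The same held at every other region found in all libraries except R24 and R28. The median folds of the whole lists, given above, did not overlap either. The share of all regions with this pattern was not computed, so the pattern is not read as a result about the interval.

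R28 (chr18:38067147-38068363) had folds of 30.4 and 17.1 in naive WT, 31.9 and 30.9 in naive DKO, 7.72 and 17.5 in cultured WT, and 6.06 and 11.6 in cultured DKO. Here cultured WT replicate 2 lay above naive WT replicate 2, so the WT values overlapped between naive and cultured cells. R04, beside the empty stretch, had 15.8 and 13.9, 16.2 and 13.4, 5.01 and 10.2, and 4.98 and 7.82, and its percentile within the lists ran from 20.8 to 83.4. It was the only region before the empty stretch with a peak in all 8 libraries.

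The order of strength among these 11 regions was alike from list to list. Across the 28 pairs of libraries, Spearman's rho of the fold over the 11 regions ranged from 0.864 to 0.973 with a median of 0.936, as a description over sites that all libraries share. Regions found in all 8 libraries were wider, with a median of 1375 bp, than those found in 1 to 4 libraries, with a median of 575 bp, and their median mean percentile was 82.6 against 12.4. A wide merged region is in part the result of joining more peaks. The sets were formed by presence in lists of unequal length, which is not independent of rank, so the percentiles are a description only. The same split over all regions was not made. Summits at the 11 regions spread over 0 to 208 bp between libraries, with a median of 118 bp, against a median of 135 bp over all regions of the series found in every library.

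**Figure D3:**
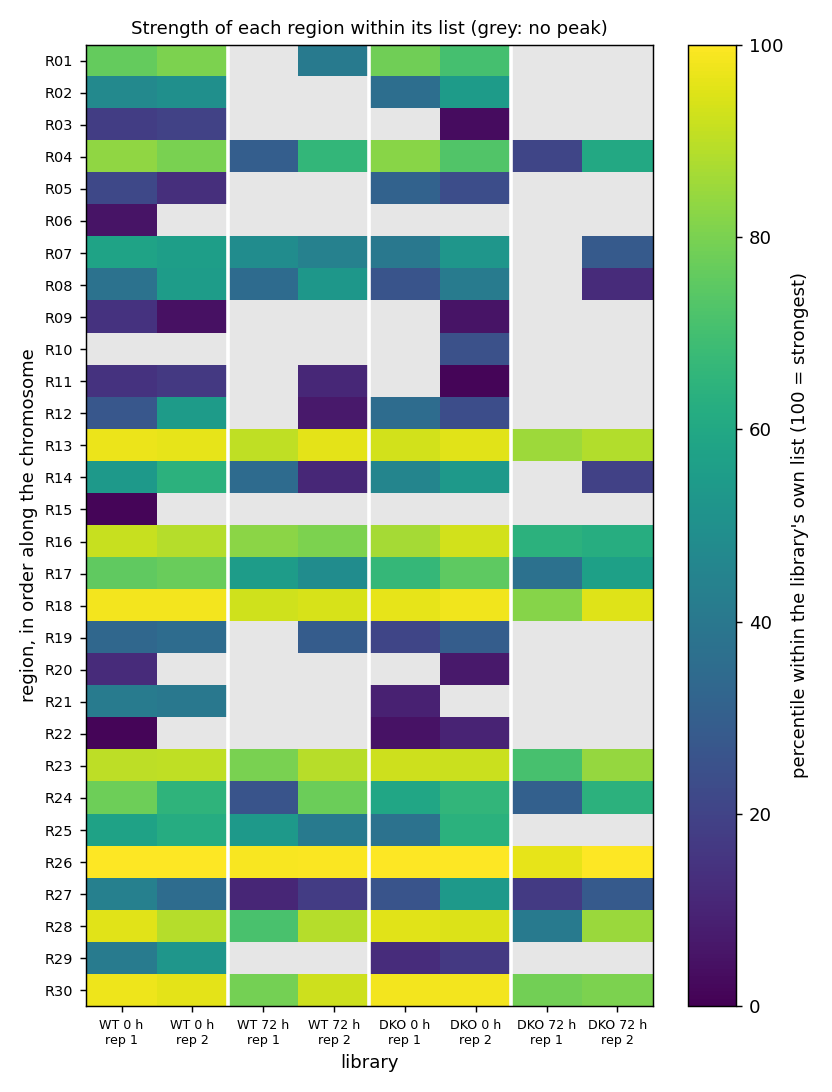
Percentile of each region's peak within its own library's list by the authors' p-value (colour, 100 is the strongest) for R01 to R30 from top to bottom and the 8 libraries from left to right; grey means no listed peak. R26, R18 and R13 are strong in all 8 columns, and the grey cells fall mainly in the 72 h columns on regions of low percentile in the 0 h columns.

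WT and DKO naive cells were compared to ask whether loss of Tcf1 and Lef1 goes with a different set of CTCF regions at the protocadherins. Of the 30 regions, 0 had a peak in the WT pair and none in the DKO pair of naive libraries, where 4.88% of all regions did, and 0 showed the reverse, where 2.73% did. A count of 0 of 30 allows a share of up to 10%, so it is not set apart from either background. Both WT libraries had a peak at 25 regions (83.3%, against 71.7% of all regions) and both DKO libraries at 22 (73.3%, against 68.7%). Of the 30, 21 regions (70.0%) had a peak in all 4 libraries, against 61.8% of all regions. R10 (chr18:37879744-37880265) was the only region without a peak in naive WT, and it had a single peak, of fold 7.09 in naive DKO replicate 2.

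The genotypes were compared again in cultured cells, where 1 region was specific to WT. R25 (chr18:38039827-38040722), 3.05 kb from R26, had folds of 9.29 and 8.18 in cultured WT and no peak in cultured DKO. Its folds were 14.0 and 15.2 in naive WT and 8.66 and 17.2 in naive DKO. WT-only regions of cultured cells made up 6.37% of all regions in the series and 3.33% (1 of 30) here, and DKO-only regions made up 0.0303% of all regions and 0 of 30 here. Over both times, 0 regions had a peak in all 4 WT libraries with none in DKO, and 0 had the reverse, where these shares were 0.498% and 0.0126% of all regions.

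In cultured cells both WT libraries had a peak at 15 regions (50%, against 42.2% of all regions) and both DKO libraries at 11 (36.7%, against 9893 of 39574). All 14 regions listed for any cultured DKO library were listed for both cultured WT libraries, against 88.4% of such regions in the whole series. The cultured libraries were nested in the order of their list lengths. The 11 regions of DKO replicate 1 were all among the 14 of DKO replicate 2, these all among the 15 of WT replicate 1, and these all among the 19 of WT replicate 2. The whole series was close to this, with 97.8%, 89.0% and 98.7% of the regions at the same 3 steps.

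Naive and cultured cells were compared within each genotype. In WT, 6 regions had a peak in the naive pair and none in the cultured pair of libraries (20%, where 13% of all regions did), and in DKO it was 8 regions (26.7%, where 29.1% did). The reverse pattern was found at 0 regions in both genotypes, where 0.576% of all regions showed it in WT and 0.116% in DKO. All 19 regions with any peak in cultured cells had one in naive cells; over the whole series 1189 of 26449 such regions had none, so this count is close to the background.

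R02 (chr18:36903847-36904765), R05 and R29 (chr18:38085355-38085965) had a peak in all 4 naive libraries and in 0 cultured libraries. At R02 the naive WT folds were 7.69 and 6.83 and the naive DKO folds 5.78 and 10.5. At R05, on the distal side of the empty stretch, the WT folds were 5.65 and 4.92 and the DKO folds 7.64 and 5.71. At R29 the WT folds were 9.0 and 11.5 and the DKO folds 4.87 and 5.40.

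In WT alone, R03 (chr18:36953141-36953646), R09 (chr18:37874085-37874446) and R21 (chr18:37973219-37973998) were also found in naive cells alone. Their folds in the WT libraries were 6.08 and 6.36, 6.05 and 4.89, and 9.27 and 8.91, and in each of them a single naive DKO library had a peak as well, of 4.32, 4.94 and 4.64. In DKO alone, 5 more regions had a peak in both naive DKO libraries and in no cultured DKO library: R01 (chr18:36899316-36900068), R12 (chr18:37890099-37890852), R19 (chr18:37925098-37925651), R22 (chr18:38000911-38001520) and R25. R01, the strongest of them, had folds of 21.9 and 18.3 in naive DKO, 19.6 and 20.4 in naive WT, and 8.46 in cultured WT replicate 2. R12 and R19 also had a peak in cultured WT replicate 2, of fold 4.31 and 7.64, and R22 had folds of 4.5 and 5.48 in naive DKO and 4.36 in naive WT replicate 1.

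Regions with a peak in both cultured libraries had, in the median, ranked higher in naive cells than those with none. Of the 25 regions found in both naive WT libraries, 15 (60%, exact 95% interval 38.7 to 78.9) had a peak in both cultured ones, 4 in one and 6 in neither. The same share over all regions was 57.4%. The 15 had mean percentiles from 39.5 to 99.9 in the naive WT lists, with a median of 81.7, and the 6 had 9.49 to 48.5, with a median of 29.9. In DKO, 11 of 22 (50%, exact 95% interval 28.2 to 71.8) had a peak in both cultured libraries, 3 in one and 8 in neither, against 36.1% kept in both over all regions. The 11 had naive percentiles from 40.2 to 99.9 with a median of 92.2, and the 8 had 7.46 to 74.5 with a median of 28.5. The highest of the 8 was R01. The ranges of kept and lost regions overlapped in both genotypes. Over all regions of the series the medians stood in the same order, at 72.6 for kept and 23.8 for lost regions in WT and at 81.5 and 31.3 in DKO.

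The other members lay between these sets. R07, R08 and R14, all in the run of 14 regions, had a peak in every library except cultured DKO replicate 1, the shortest list, with folds of 6.93 to 14.5, 5.77 to 12.8 and 5.80 to 15.7. R17 and R27 were found in all 8 libraries at folds of 6.59 to 22.7 and 5.39 to 13.5. R11 had a peak in both naive WT libraries, cultured WT replicate 2 and naive DKO replicate 2, at folds of 4.40 to 6.19. R20 had a peak of fold 5.02 in naive WT replicate 1 and of 4.29 in naive DKO replicate 2.

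Cultured libraries held fewer peaks of the interval than naive ones. Naive WT had 29 and 25 peaks (27 ± 2.83, SD, n = 2) and naive DKO 23 and 27 (25 ± 2.83, n = 2). Cultured WT had 15 and 19 (17 ± 2.83, n = 2) and cultured DKO 11 and 14 (12.5 ± 2.12, n = 2). All 4 cultured libraries were below all 4 naive ones.

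The difference, cultured minus naive, was -11.25 peaks, between means of 14.75 and 26. Permuting the time labels within genotype gave an exact two-sided p of 0.0556 (n = 4 against 4), the smallest this design allows, and 0.222 after Benjamini-Hochberg adjustment over 4 tests. The difference DKO minus WT was -3.25 peaks, between means of 18.75 and 22 (exact permutation of genotype labels at each time, p = 0.167, adjusted p = 0.333). Neither could pass the threshold of 0.05, since 0.0556 is the smallest p possible for both. Leaving out a library, which also unbalances the times, moved the genotype difference to -0.667 and -1.67 without cultured DKO replicates 1 and 2, -0.917 without naive WT replicate 1, -5.58 without cultured WT replicate 1 and -6 without naive DKO replicate 2.

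The whole lists shortened as well, so the interval's share of each list was compared. The share was 0.0890% and 0.0807% in naive WT, 0.0759% and 0.0860% in naive DKO, 0.0865% and 0.0713% in cultured WT, and 0.106% and 0.0862% in cultured DKO. The values of naive and cultured WT overlapped, and both cultured DKO values lay above both naive DKO values, the nearest pair being 0.0862% and 0.0860%. The share differed by 0.00472 percentage points between cultured and naive libraries (exact permutation test, n = 4 against 4, p = 0.611, adjusted p = 0.611) and by 0.00673 between DKO and WT (exact permutation test, p = 0.556, adjusted p = 0.611). With each list shortened to its 10339 strongest peaks, the libraries held 11 and 10 interval peaks in naive WT, 10 and 10 in naive DKO, 10 and 9 in cultured WT, and 11 and 10 in cultured DKO.

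**Figure D4:**
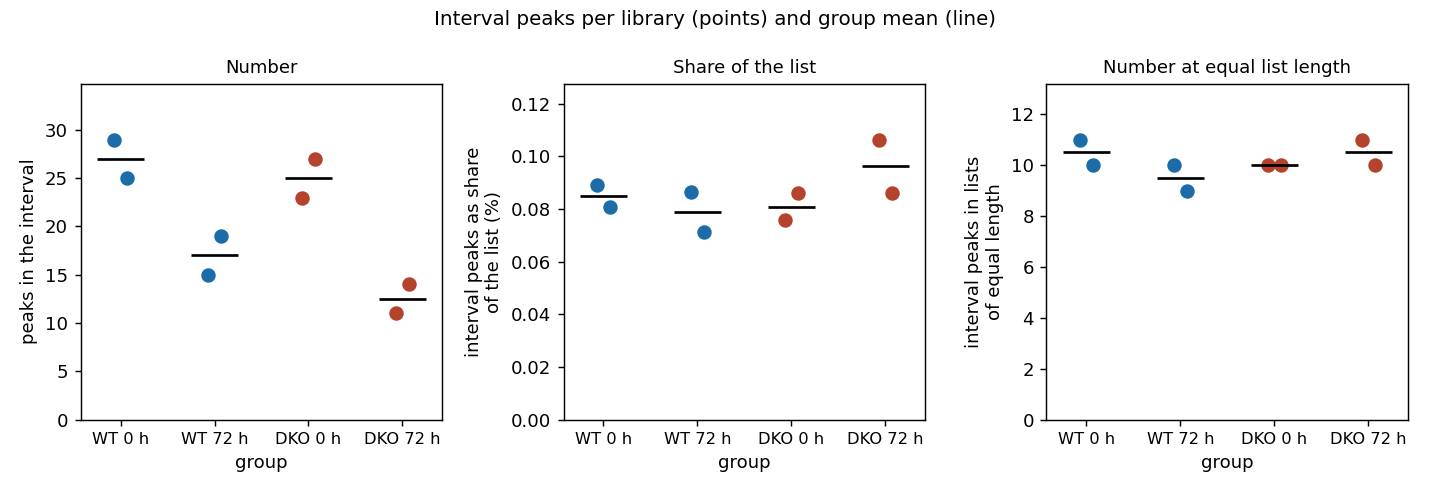
Left, CTCF peaks of the interval per library; middle, the same as a share of the library's list in percent; right, the number in lists of 10339 peaks each. Points are libraries (blue WT, red DKO) and lines are group means of 2 libraries; the number is lower at 72 h in the full lists and lies between 9 and 11 in every library at equal length.

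Among the 10339 strongest peaks, the same 7 regions appeared in all 8 libraries: R13, R16, R18, R23, R26, R28 and R30. At this length R25 was listed in cultured WT replicate 1 alone, so it no longer set the genotypes apart. R01 was then within the list in all 4 naive and 0 cultured libraries, and R24 (chr18:38036198-38037684) was within it in both cultured and neither naive DKO library. R24 had a peak in all 8 full lists, with folds of 16.6 and 11.7 in naive WT, 11.4 and 13.3 in naive DKO, 5.64 and 12.7 in cultured WT, and 5.27 and 8.17 in cultured DKO.

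The regions nearest outside the interval, given as a description of the border, were chr18:36894480-36895100, 4.9 kb before it, and chr18:38114384-38115436, 14.4 kb after it. Each had a peak in 4 libraries, with folds from 5.04 to 5.87 and from 5.02 to 5.60. The regions nearest inside were R01 and R30.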

How the data were processed

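CTCF CUT&RUN had been run on 8 libraries of mouse CD8+ T cells, with 1 IgG library. MACS2 2.1.1, Bowtie2 2.2.5 and FastQC are named with build mm9, per the submitters' processing notes. What control and thresholds the caller had is not given in the sources used here. Peaks had been called per library, 1 list for each sample. The lists as deposited give per peak a fold (the authors' enrichment over local background), a score that was not used, −log10 p, −log10 q and the summit in bp from the peak start. These values are the authors' and were used to describe or rank peaks within a list. Read depth was not given, and an uncalled peak shows only that no peak was listed.

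Peaks on chromosomes 1 to 19 and X were merged at 1 bp overlap with Python 3.11.15 and pandas 2.3.3. A region was specific to a group when both libraries of it, and neither of the other, had a peak; with 2 libraries against 2 the smallest exact p is 0.333, so no test was made. Percentiles rank peaks within a list by −log10 p. Peaks per library were compared by exact permutation within the other factor. The overlap step was run on simulated lists in which regions planted as specific to naive WT were the only ones missing from any library. Those lists are simpler than the real ones, so the run is a check of the code only. Regions named with values in every library were the 8 of highest mean percentile among those found in all libraries, those specific to a group, the 3 closest pairs, the regions beside the 3 widest gaps and the top region of each window. The remaining regions are named to account for all 30. The interval, the members and all lists were chosen with earlier results of these data known. Gene order came from RefSeq (GRCm38.p6), names only.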

Additional observations from a re-analysis of the deposited data

How the results depend on the processing

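Counts of specific regions here are small. Shares over all regions were computed under the main rule alone. The counts and kept shares below, also with a library left out, therefore have no background beside them and are not read as results about the interval. With lists of equal length, the interval held 14 regions, 7 of them in every library, at a median distance of 21.1 kb. The DKO minus WT difference in peaks was then 0.25 and the 72 h minus 0 h difference in share -0.00242 percentage points, both of the opposite sign. WT-only regions at 72 h numbered 0, regions found only at 0 h 1 in WT and 1 in DKO, and those found only at 72 h 1 in DKO. Of the regions found in both 0 h libraries, 70% in WT and 90% in DKO had a peak in both 72 h libraries. In the full lists it was 60% and 50%, so the order of the genotypes was reversed. With the interval shortened by 100 kb at each end, 17 regions remained, 4 of them in every library, the differences in share were -0.00306 (time) and -0.00158 (genotype), again of the opposite sign, WT-only regions at 72 h numbered 0, and regions found only at 0 h numbered 3 in WT and 3 in DKO. With −log10 q of at least 5, WT-only regions numbered 3 at 0 h and 2 at 72 h. With summits within 100 bp they numbered 1 at 0 h and 0 at 72 h. With a peak in at least 1 library, WT-only and DKO-only regions numbered 2 and 1 at 0 h, 5 WT-only at 72 h, and 2 and 1 over both times, and regions found only at 0 h numbered 10 in WT and 14 in DKO. The cause of these shifts was not tested.

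With each library left out in turn, the time difference in peaks ran from -12.7 to -10 and in share from -0.00153 to 0.0101 percentage points, negative without DKO 72 h replicate 1. The genotype difference ran from -6 to -0.667 peaks, and in share from 0.000809 to 0.0110. At 0 h, WT-only regions ran from 0 to 3 (3 without DKO 0 h replicate 2) and DKO-only from 0 to 1. WT-only regions at 72 h ran from 1 to 5, the value 5 without WT 72 h replicate 1 and the value 4 when DKO 72 h replicate 2 was left out. Regions found only at 0 h ran from 6 to 10 in WT (10 when replicate 2 of either time was left out) and from 8 to 13 in DKO (13 without DKO 0 h replicate 1). The labels do not say what libraries with the same replicate number share beyond that number. The correlation of their deviations ran from -0.0248 to 0.0844 over the 6 pairs of groups. This cannot tell whether they shared an animal or a run. With a replicate block, in which labels were exchanged only between libraries of the same number, the differences stayed at -11.25 and -3.25 peaks and at 0.00472 and 0.00673 percentage points. The exact p for the peak counts was 0.125 (time) and 0.25 (genotype) and for the shares 0.875 and 0.375, where 0.125 is the smallest possible. Counting only peaks that themselves overlap the interval, an alternative added after the data were seen, changed no direction or call.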

Other observations

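The chromosome on both sides of the protocadherin interval was more evenly filled. In the 1200 kb before the interval there were 67 CTCF regions, with 100.1 kb as the widest distance between neighbours, and 12 of them (17.9%) had a peak in all 8 libraries. In the 1200 kb after it there were 39 regions, the widest distance was 214.0 kb, and 10 (25.6%) had a peak in all 8. The median distance was 10.2 kb before and 21.1 kb after the interval. It was 8.38 kb over the 29 regions with a mean summit inside the interval. At 0 h, both WT libraries had a peak at 45 regions before and 29 after the interval and both DKO libraries at 41 and 33. At 72 h these numbers were 22 and 20 in WT and 12 and 11 in DKO.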
